A study of Mus musculus with 16 samples.

Results

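The comparison described here sets growing mouse oocytes lacking Hdac2 against wild-type oocytes, on 8 of the 16 arrays of a study of 2 histone deacetylases, Hdac1 and Hdac2. Membership was taken from the sample labels: 4 arrays are labelled wild type and 4 are labelled as carrying a conditional knockout of Hdac2. The other 8 arrays, 4 from Hdac1 knockouts and 4 from double knockouts, enter the shared estimate of spread and are used where a gene's level in them shows how the Hdac2 knockout differs. The purpose stated in the labels was to learn what Hdac1 and Hdac2 do in the animal while the oocyte grows. All groups were of the C57BL/6 background, and the oocytes came from the ovaries of mice 12 days old. The knockouts combined conditional alleles of Hdac1, Hdac2 or both with a Cre recombinase transgene driven by the promoter of Zp3, a gene of the egg coat, so deletion is limited to the oocyte and begins as it grows. The sources used here do not say if the wild-type mice carried the conditional alleles or the transgene. Each sample pooled 80 oocytes, and the 4 samples of a genotype are labelled biological replicates.

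Histone deacetylases remove acetyl groups from the tails of histones, which makes chromatin more compact and, at many genes, less open to transcription. Hdac1 and Hdac2 are close relatives that bind no DNA themselves and work inside the Sin3, NuRD, CoREST and MiDAC complexes, where either enzyme, or both, can sit. A growing oocyte transcribes heavily and stores RNA and protein for the embryo. It later becomes silent, and chromatin regulators have known roles in both steps.

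RNA was amplified and read on an Affymetrix array of the Mouse 1.1 ST design, where several short probes are combined into 1 value for a probe set. A value is given throughout on the log2 scale, so that a difference of 1 is a 2-fold change. The base was inferred from the range of the values and is not stated in the labels, and every fold below rests on it. Probe sets with exactly 1 gene symbol, 21218 of 35556, were tested. They covered 18820 genes, and a gene is represented by its brightest probe set, judged by the mean of all 16 arrays, unless another is named. Values of different probe sets depend on their probes and are not compared as amounts of RNA. Since oocytes were pooled, less RNA in every oocyte and fewer oocytes holding a transcript cannot be told apart. Medians of the 8 arrays lay between 4.46 and 4.51, and arrays correlated over the tested probe sets at 0.9967 to 0.9979 within wild type, 0.9959 to 0.9970 within the Hdac2 knockout and 0.9936 to 0.9957 between them.

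The tissue label was checked against oocyte markers. All 11 of them read between 7.93 and 12.47 in both groups, and 0 were called by limma, with 0 at an unadjusted p under 0.05; among them were Gdf9, an oocyte growth factor, at 12.47 in wild type and 12.42 in the knockout, and Zp3 itself at 11.93 and 11.92. Of 14 markers of granulosa cells, which surround the oocyte, 3 were above the median level of tested probe sets in the mean over all arrays, Gata4 rose by 0.68 and Kitl fell by 0.50, while defining markers such as Amh (3.45 and 3.49), Fshr (4.10 and 4.24) and Foxl2 (4.71 and 4.71) were dim in wild type and knockout. Nr2f2, 1 of 15 theca and stroma markers, rose by 0.53, and Tek, 1 of 14 markers of blood and vessel cells, fell by 0.50. The summed granulosa signal, on a linear scale, ran from 1191 to 1285 on wild-type arrays and from 1122 to 1243 on knockout arrays, the theca and stroma sum from 443 to 473 and from 431 to 490, and the blood and endothelial sum from 701 to 765 and from 657 to 755. These ranges overlap, and the part of other cell types in the results below was not tested.

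Promoter sequences of 4 genes that rose are shown because they come from the contrasting patterns described below. Extl1 and Slc30a2 are neighbours on chromosome 4 that rose in the Hdac2 knockout against all 3 other genotypes, and Foxa3 and Gdf11 rose in the Hdac2 knockout and stood higher still in the double knockout. Each line gives the 250 bases before the transcription start, 5′ to 3′ on the gene's strand, from RefSeq on build GRCm38.p6: Extl1 at chr4:134372548-134372797 (minus strand), Slc30a2 at chr4:134343216-134343465 (plus strand), Foxa3 at chr7:19023540-19023789 (minus strand) and Gdf11 at chr10:128891719-128891968 (minus strand). Capitals mark 3 motifs searched on both strands: the GC box GGGCGG, the CCAAT box and the TATA box as TATAAA. Where GC boxes overlap, the capitals run together.
Extl1: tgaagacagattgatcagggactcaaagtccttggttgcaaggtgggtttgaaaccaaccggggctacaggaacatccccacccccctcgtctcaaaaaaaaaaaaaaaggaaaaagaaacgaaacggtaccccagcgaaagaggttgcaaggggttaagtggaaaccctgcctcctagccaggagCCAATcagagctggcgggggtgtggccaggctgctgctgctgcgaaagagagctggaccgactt
Slc30a2: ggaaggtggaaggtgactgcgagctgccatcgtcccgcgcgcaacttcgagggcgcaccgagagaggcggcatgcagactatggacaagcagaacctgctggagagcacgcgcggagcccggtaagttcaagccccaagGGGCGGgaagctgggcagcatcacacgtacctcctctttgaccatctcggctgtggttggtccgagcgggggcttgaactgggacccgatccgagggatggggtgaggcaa
Foxa3: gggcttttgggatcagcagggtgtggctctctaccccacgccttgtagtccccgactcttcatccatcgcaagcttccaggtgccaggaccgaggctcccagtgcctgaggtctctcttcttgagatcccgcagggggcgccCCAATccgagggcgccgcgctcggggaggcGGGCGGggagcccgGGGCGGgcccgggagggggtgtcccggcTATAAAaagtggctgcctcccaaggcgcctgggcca
Gdf11: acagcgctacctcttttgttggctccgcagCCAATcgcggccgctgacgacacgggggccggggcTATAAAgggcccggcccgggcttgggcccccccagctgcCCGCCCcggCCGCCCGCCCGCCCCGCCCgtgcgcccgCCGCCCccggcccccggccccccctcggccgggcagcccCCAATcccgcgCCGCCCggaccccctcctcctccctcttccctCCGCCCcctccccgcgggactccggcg
The Extl1 window held 0 GC boxes and 1 CCAAT box and had a G and C content of 53.2%, and that of Slc30a2 held 1 GC box at 64.0%. The Foxa3 window held 2 GC boxes, 1 CCAAT box and 1 TATA box at 68.8%, and that of Gdf11 held 8 GC boxes, 2 CCAAT boxes and 1 TATA box at 81.2%. Over the 27025 genes of the RefSeq table, using the first promoter listed for each, 32.9% of windows of this length held a GC box, 34.5% a CCAAT box and 13% a TATA box. A match of letters is a description of the window and not a binding site.

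Hdac2 itself did not show the deletion. Its probe set read 11.07, 11.02, 11.18 and 11.08 on the wild-type arrays and 10.95, 11.01, 11.01 and 10.99 on the knockout arrays, so the 4 knockout arrays were lower without overlap but 93.5% of the signal was left. The difference of -0.10 ± 0.05 (SE) was not called (limma adjusted p = 0.33; two-sided exact permutation p = 0.0286, the smallest that 4 against 4 arrays allow). In the double knockout, also labelled as lacking Hdac2, the probe set stood at 10.87 ± 0.06 (SD, n = 4). That was a difference of -0.21 from wild type (limma adjusted p = 0.00274). The sources used here do not say which exons were deleted or which the probe set reads, so it does not check the genotype label. Hdac1, the paralogue, read 9.26, 9.26, 9.23 and 9.35 in wild type and 9.69, 9.77, 9.55 and 9.56 in the library group labelled Hdac2 knockout. All 4 knockout arrays were above all 4 wild-type arrays, a rise of 0.36 ± 0.08 (SE), or 1.29-fold (limma adjusted p = 0.0172; two-sided exact permutation p = 0.0286). Its second probe set rose by 0.35. Without Hdac2-knockout replicate 1 or 2 the limma adjusted p for Hdac1 was 0.0533 and 0.0525. Of the remaining class I deacetylases Hdac3 stood at 7.15 in wild type and 7.19 in the knockout, and Hdac8 at 7.85 and 7.66, and neither was called; of the 14 other deacetylases and sirtuins limma called 0, with 2 at an unadjusted p under 0.05.

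Against wild type, 1187 probe sets of 1132 genes were called at a limma adjusted p under 0.05, which is 5.59% of those tested. Every count of called list members or markers in this report is to be read beside this share, and no list was tested for an excess. Of these 606 were higher (2.86%) and 581 lower (2.74%), 3925 had an unadjusted p under 0.05, and 454 also changed at least 1.4-fold (2.14%), the size named in the series' design text. Larger changes were mostly rises: 43 probe sets were at least 2-fold higher and 14 at least 2-fold lower, and 7 were at least 4-fold higher and 0 lower. The middle change was small, with a median absolute difference of 0.42 among the called probe sets, a median difference of -0.01 over all tested, and 95% of all differences between -0.37 and 0.38. The 4 knockout and 4 wild-type arrays did not overlap in 1117 of the 1187 called probe sets and in 13.5% of all tested. Separate groups were part of the rule by which many genes below were named, so their separation is a description and adds no support. The even split between directions depended on scaling, since centring every array on its own median gave 443 higher and 763 lower. For a gene named below, a call against wild type was also made in each of the 8 fits that left out 1 of these arrays, unless its loss is stated. This does not cover calls against the Hdac1 knockout or the double knockout, which were not followed gene by gene. Nor does it cover list members counted but not named, cell markers, Fat3, Rpl27a, Gapdh, Acp1 and further probe sets of a gene. With 1 array fewer the count was 770 when wild-type replicate 3 was left out, 722 for wild-type replicate 4, 683 for Hdac2-knockout replicate 1 and 716 for Hdac2-knockout replicate 4.

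Calls were most frequent among probe sets of middle to fairly high wild-type value. In 5 equal bins of the wild-type mean, 0.636%, 1.89%, 8.98%, 11.3% and 5.16% were called from the dimmest to the brightest. The middle bin, from 4.4 to 6.46, held 27 of the 43 rises of 2-fold or more, and the brightest, above 8.80, held 0 of them. Of the 14 falls of 2-fold or more, 10 lay in the fourth bin, from 6.46 to 8.80. The genes with large rises were thus mostly read at a middle value in wild type, and those with large falls at a higher one.

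**Figure D1:**
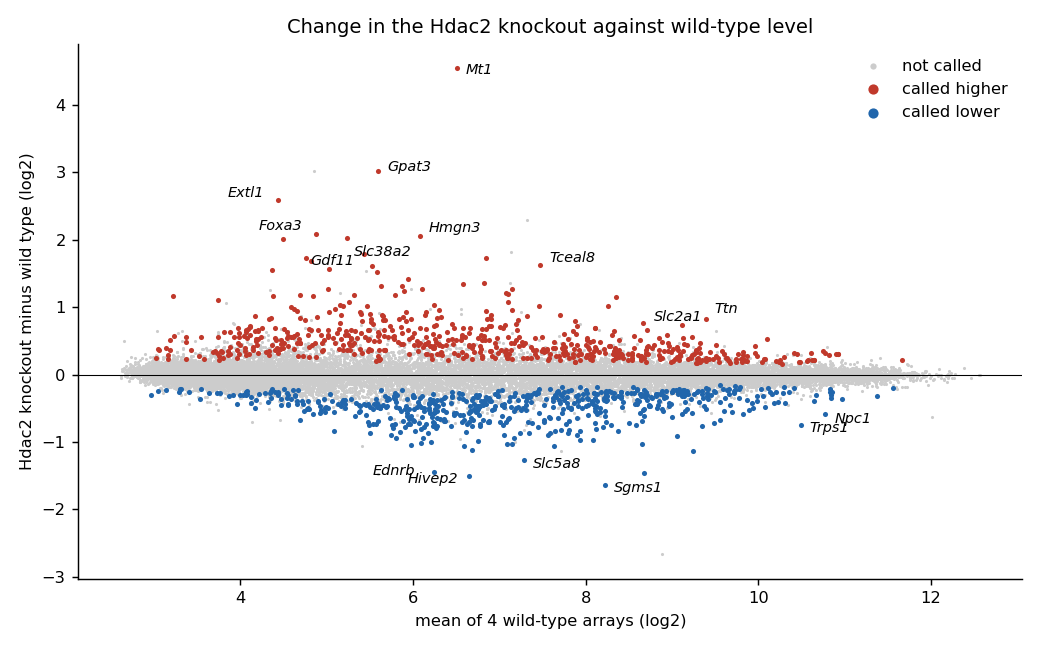
The change in the Hdac2 knockout (Hdac2 knockout minus wild type, log2) of each tested probe set is plotted against its mean on the 4 wild-type arrays (log2), with the 606 called higher in red, the 581 called lower in blue and the rest in grey. Mt1, Gpat3 and Extl1 lead the rises from wild-type values under 7, and Sgms1 and Hivep2 lead the named falls.

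Mt1, a metallothionein that binds zinc and copper, rose most. Its values were 6.52, 6.54, 6.38 and 6.61 on the wild-type arrays and 11.01, 10.99, 11.20 and 11.02 on the knockout arrays. The groups are far apart and each is tight, and the difference of 4.55 ± 0.09 (SE) is a 23.4-fold rise (limma adjusted p = 6.9e-15). The Hdac1 knockout stood at 11.14 ± 0.21 (SD, n = 4) and the double knockout at 11.07 ± 0.07, neither called against the Hdac2 knockout (limma adjusted p = 0.678 and 0.928). Its neighbours in function did not follow: Mt2 read 4.93 in wild type and 4.79 in the knockout, Mt3 4.58 and 4.61, and Mtf1, the metal-sensing factor that drives metallothionein genes, 10.43 and 10.47, with 0 of these 3 called. Some Cre transgenes carry the end of the mouse Mt1 gene; the sources used here do not say if this one does, and its part in the Mt1 signal was not tested. Slc30a2, a transporter that loads zinc into vesicles, rose 1.87-fold, from 5.40 ± 0.27 to 6.30 ± 0.14 (SD, n = 4), while Slc30a7, a zinc transporter of the Golgi, fell by 0.47. Of 29 metallothioneins and zinc transporters 2 were higher, 2 lower and 25 not called, beside 5.59% called over all tested probe sets. Their median change was -0.07.

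Gpat3, which starts triglyceride synthesis by adding a fatty acid to glycerol phosphate, read 5.59, 5.62, 5.55 and 5.62 in wild type and 9.63, 8.30, 7.43 and 9.09 in the knockout. Wild type was tight and the knockout spread over more than 2 log2 units with no overlap, and the rise was 8.1-fold (limma adjusted p = 0.0029). The double knockout stood at 9.24 ± 0.45 (SD, n = 4), and the Hdac1 knockout at 6.47 ± 1.35. Plin2, a coat protein of lipid droplets, rose 1.46-fold from 6.97 ± 0.20 to 7.52 ± 0.14, and Dgat2, which makes triglyceride from diacylglycerol, was 1.29-fold higher, which was no longer called in 4 of 8 fits with 1 array left out (limma adjusted p up to 0.0685). Of 38 genes of glycerolipid synthesis and lipid droplets these 3 were higher and 0 lower, beside 5.59% called over all tested probe sets. The median change of the list was -0.01, the same as over all tested probe sets.

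Extl1, an exostosin-like glycosyltransferase of heparan sulfate synthesis, read 4.51, 4.42, 4.53 and 4.28 in wild type and 6.84, 6.93, 7.39 and 6.94 in the knockout. No knockout array came near the wild-type range, and the rise of 2.59 ± 0.11 (SE) was 6.01-fold (limma adjusted p = 5.65e-10). The Hdac1 knockout stood at 4.61 ± 0.13 (SD, n = 4) and the double knockout at 4.55 ± 0.14, both close to wild type. Of the other 36 measured genes of heparan sulfate synthesis and proteoglycans 2 were lower, Extl2 (-0.25) and Ndst2 (-0.44), each lost in 4 of 8 fits without 1 array (limma adjusted p up to 0.0771 and 0.101).

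Of the 15 genes with the largest rises, those that encode transcription or chromatin factors are given next. Foxa3, a forkhead factor that can bind closed chromatin, read 4.77, 4.46, 5.22 and 5.09 in wild type and 6.97, 6.49, 7.17 and 7.27 in the knockout, a 4.26-fold rise without overlap (limma adjusted p = 9.24e-06). In the list of 33 forkhead factors 1 other was called, Foxr2, which was higher by 0.32 at a dim 4.06 in the knockout, with overlapping arrays and a call lost in 6 of 8 fits without 1 array (limma adjusted p up to 0.104). Hmgn3, which binds nucleosomes and loosens their packing, read 5.91, 6.12, 6.23 and 6.07 against 8.25, 8.01, 8.12 and 8.19. Both groups were tight, and the rise was 4.17-fold (limma adjusted p = 5.65e-10). The related Hmgn1 (6.92 and 6.98) and Hmgn2 (11.39 and 11.39) did not follow, and of 9 nucleosome-binding and HMG genes 2 were higher, Hmgn3 and Hmgb3, and 0 lower, the call of Hmgb3 being lost in 4 of 8 fits without 1 array (limma adjusted p up to 0.0541). Hdx, a homeobox gene on the X chromosome, rose 4.03-fold from 4.50 ± 0.07 to 6.51 ± 0.32 (SD, n = 4), the homeobox gene Hoxd8 2.88-fold from 5.58 ± 0.24 to 7.11 ± 0.47, and Bcor, a co-repressor found in a variant polycomb complex, 2.68-fold from 5.94 ± 0.36 to 7.36 ± 0.12.

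Tceal8 and Tceal9, X-linked relatives of an elongation factor, both rose. Tceal8 read 7.65, 7.37, 7.24 and 7.65 in wild type and 8.66, 9.06, 9.41 and 9.26 in the knockout, a 3.08-fold rise with every knockout array above wild type. Tceal9 rose 1.85-fold from 6.91 ± 0.24 to 7.80 ± 0.07 (SD, n = 4). The autosomal Tcea3 fell by 0.26, and 10 of the 13 measured genes of this family were not called. Over all tested probe sets 5.59% were called.

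Signalling genes of the TGF-beta and BMP family gave both directions. Gdf11, a secreted ligand close to myostatin, read 5.18, 5.25, 5.72 and 5.60 in wild type and 7.72, 6.78, 7.24 and 7.19 in the knockout. The arrays did not overlap, and the rise was 3.47-fold (limma adjusted p = 6.36e-05). Smoc1, an extracellular modulator of BMP signals, rose 3.07-fold from 5.52 ± 0.21 to 7.14 ± 0.49 (SD, n = 4), and the ligand Bmp7 rose 1.48-fold, though its dimmer second probe set, at 3.46 and 3.58, was not called. Acvr1, a type I receptor for BMP and activin ligands, fell by 0.45. The remaining 39 of 43 genes in this list were not called, including the oocyte's own Gdf9, and the list's median change was -0.02.

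Of 37 amino acid transporters 3 were higher, 1 lower and 33 not called, beside 5.59% called over all tested probe sets. Their median change was 0.00. Slc38a2, which takes up small neutral amino acids, read 5.36, 4.81, 5.44 and 5.34 in wild type and 8.63, 6.48, 6.54 and 7.41 in the knockout. The knockout arrays were widely spread but all above wild type, at 4.08-fold (limma adjusted p = 0.00298). Slc1a1, a glutamate and aspartate carrier, rose 2-fold from 4.59 ± 0.16 to 5.59 ± 0.26 (SD, n = 4), and so did its other called probe set, by 0.59. Glul, glutamine synthetase, rose 1.69-fold from 8.66 ± 0.10 to 9.42 ± 0.15, and its dimmer probe set rose by 0.79. Slc7a11, the cystine importer, was lower by 0.39 at a high 10.64 in wild type, and Slc7a8 was 2.03-fold higher; these calls were lost in 5 and 7 of 8 fits without 1 array (limma adjusted p up to 0.078 and 0.127).

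Genes of glucose use were called in both directions. Slc2a1, the glucose transporter GLUT1, read 8.83, 8.53, 8.73 and 8.76 in wild type and 9.50, 9.25, 9.34 and 9.42 in the knockout, a 1.59-fold rise without overlap (limma adjusted p = 0.00245). Pfkfb2, which makes the activator of the main control step of glycolysis, read 7.11, 7.24, 7.13 and 7.10 against 6.15, 6.45, 5.55 and 6.30 and fell by 1.03 (limma adjusted p = 0.000894). Slc5a8, which imports lactate and other monocarboxylates, read 7.23, 7.35, 7.19 and 7.36 against 5.94, 6.27, 5.73 and 6.10 and fell by 1.27 (limma adjusted p = 1.41e-05). Every knockout array of these last 2 genes lay below every wild-type array. Tktl2, a transketolase-like gene, fell by 1.02 from 6.10 ± 0.12 (SD, n = 4). Of 35 genes of glycolysis and its regulators 1 was higher, 3 lower and 31 not called, beside 5.59% called over all tested probe sets. Their median change was 0.00.

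**Figure D2:**
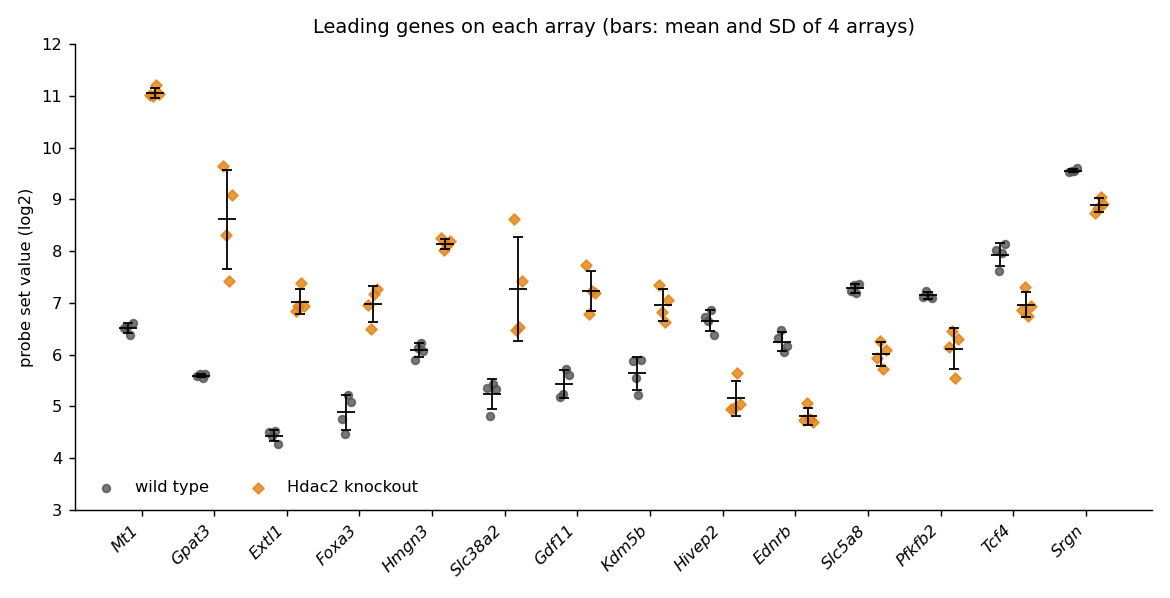
Probe set values (log2) of 14 genes on each of the 4 wild-type arrays (grey circles) and the 4 Hdac2-knockout arrays (orange diamonds), with bars for the mean and SD of each group. Gpat3 and Slc38a2 have the widest spread among these 14 in the knockout (SD 0.96 and 1). In each gene the groups do not overlap, which was part of the rule that chose most of these genes.

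Several other genes fell by about 1 or more on the log2 scale. Hivep2, a large zinc finger factor, read 6.73, 6.65, 6.86 and 6.38 in wild type and 4.95, 4.96, 5.65 and 5.06 in the knockout and fell by 1.5 (limma adjusted p = 0.000107). Ednrb, the endothelin receptor B, read 6.32, 6.48, 6.04 and 6.16 against 4.74, 5.06, 4.75 and 4.69 and fell by 1.44 (limma adjusted p = 9.24e-06). Tcf4, a basic helix-loop-helix factor, read 8.02, 7.62, 7.96 and 8.14 against 6.86, 7.31, 6.75 and 6.94 and fell by 0.97. In each of these 3 the groups were separate. The mannose receptor Mrc1 fell by 1.04, the peptide transporter family gene Slc15a5 by 0.99 and A1bg, a plasma glycoprotein of the immunoglobulin family, by 0.95, with a limma adjusted p between 0.00154 and 0.00168. Crybg1 fell by 1.06 at its brighter probe set, and its other probe set, at 5.49 and 5.42, was not called. Larger or similar falls of Sgms1 (-1.64), Cpxm2 (-1.03) and Draxin (-0.94) were each lost in 5 of 8 fits without 1 array, with a limma adjusted p up to 0.0783, 0.0837 and 0.148.

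Genes with high wild-type values changed by less. Among rises, Ttn, which encodes the giant muscle protein titin, went from 9.39 ± 0.30 to 10.22 ± 0.12 (SD, n = 4), a 1.78-fold rise, and its other probe set rose by 0.58. Gstp1, a glutathione transferase, rose 1.67-fold from 9.11 ± 0.19, Ppp1r14b, an inhibitor of protein phosphatase 1, 1.47-fold from 9.23 ± 0.09, and the linker histone H1f1 1.48-fold from 8.56 ± 0.15. Pafah1b2, a catalytic subunit of a platelet-activating factor hydrolase, rose 1.45-fold from 8.85 ± 0.12. Cpeb2, which binds the tails of stored mRNAs and controls their translation, rose 1.42-fold from 8.64 ± 0.07; in the list of 28 genes of mRNA storage it and Ybx1 were higher, Ybx1 by 0.18, with its call lost in 8 of 8 fits without 1 array (limma adjusted p up to 0.138).

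Among bright genes that fell, Cd9, the egg surface protein needed for fusion with sperm, read 10, 9.97, 9.92 and 9.89 in wild type and 9.26, 9.57, 9.40 and 9.59 in the knockout, a fall of 0.49 with no overlap (limma adjusted p = 0.00263). Srgn, a proteoglycan core protein of secretory granules, read 9.53, 9.54, 9.54 and 9.60 against 8.74, 8.84, 9.05 and 8.92 and fell by 0.67. Pramel15, of a gene family expressed in germ cells, fell by 0.54 from 9.60 ± 0.07 (SD, n = 4), and near copies in that family may share probes. Gcnt4, a glycosyltransferase of mucin-type sugars, was lower by 0.59, with a limma adjusted p of 0.051 without wild-type replicate 3 and 0.0514 without Hdac2-knockout replicate 4. The calls of Npc1, which moves cholesterol out of lysosomes (-0.58), Trps1, a GATA-type repressor (-0.74), and the magnesium transporter Slc41a2 (-0.55) were lost in 6, 7 and 7 of 8 fits without 1 array, with a limma adjusted p up to 0.109, 0.137 and 0.118. A dimmer probe set of Trps1, at 7.80 in wild type, was also called lower, at -0.86 (limma adjusted p = 0.0244). That probe set was not followed in the fits without 1 array.

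The lists of chromatin regulators are read beside the 5.59% called over all tested probe sets. Of 33 subunits of HDAC1/2 complexes 7 were higher, 1 lower and 25 not called, with a median change of 0.06. The count of higher subunits was 2 after centring every array on its own median, 3 after centring on the median of the tested probe sets, an alternative chosen after seeing the data, and ran from 1 to 6 without 1 array, so it depends on the scaling. Arid4a, a subunit of the Sin3 complex, read 9.02, 9.24, 9.22 and 9.06 in wild type and 9.70, 9.45, 9.43 and 9.77 in the knockout, a 1.37-fold rise (limma adjusted p = 0.0108). Suds3, also of Sin3, and Mbd3, of NuRD, were 1.27-fold and 1.22-fold higher, each lost in 6 of 8 fits without 1 array (limma adjusted p up to 0.118 and 0.0996). Mideas, the scaffold of the MiDAC complex, was the subunit that fell, by 0.38 from 5.21 ± 0.08 (SD, n = 4). Among the 25 subunits not called, Sin3a read 10.61 and 10.62 in wild type and knockout, and the histone-binding Rbbp7 11.79 and 11.75.

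Among 22 genes that add methyl groups to lysine 4 of histone H3 or remove them, 3 were higher, 0 lower and 19 not called, with a median of 0.08. Kdm5b, a demethylase, read 5.88, 5.55, 5.22 and 5.91 in wild type and 7.34, 6.82, 6.63 and 7.05 in the knockout, a 2.5-fold rise with separate groups (limma adjusted p = 0.000369). Kmt2a, the MLL1 methyltransferase, rose 1.66-fold from 6.25 ± 0.31 to 6.98 ± 0.20 (SD, n = 4), and the demethylase Kdm2b 1.22-fold from 8.06 ± 0.06 to 8.35 ± 0.08. In the list of 35 polycomb and H3K9 genes 2 were higher and 0 lower. Kdm4c, a demethylase of lysine 9, rose 1.42-fold, and Kdm3a, of the same activity, was 1.24-fold higher, with a limma adjusted p of 0.0526, 0.0506 and 0.0509 without wild-type replicate 2, wild-type replicate 4 and Hdac2-knockout replicate 4. Of 14 DNA methylation genes Tdg, a glycosylase that removes mismatched thymine, was higher by 0.68, by 0.59 to 0.72 in its 3 other probe sets, from a dim 4.25; several near copies of Tdg exist and their probes may be shared. Tet1, which oxidises methylcytosine, was lower by 0.77 at its brightest probe set (lost in 6 of 8 fits without 1 array, limma adjusted p up to 0.105), and its 2 dimmer probe sets changed by 0.04 and 0.09 without a call. The maintenance methyltransferase Dnmt1 read 12.28 in both groups.

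Of 30 oocyte transcription factors and growth genes limma called 0, and 3 had an unadjusted p under 0.05. Over all tested probe sets 5.59% were called, and at that share a list this short can hold no call. The changes in this list ran from -0.23 to 0.17, with a median of -0.01. Its members included the receptor Kit at 10.84 and 10.74 and the factor Lhx8 at 9.23 and 9.33. Gpr3, the receptor that holds the oocyte in meiotic arrest through cyclic AMP, read 7.98, 8.05, 8.13 and 7.98 in wild type and 8.30, 8.42, 8.5 and 8.43 in the knockout. It rose 1.30-fold without overlap (limma adjusted p = 0.00371), and among 27 genes of meiotic arrest and resumption 1 other was higher, Prkar2a, a regulatory subunit of protein kinase A, at 1.17-fold, lost in 7 of 8 fits without 1 array (limma adjusted p up to 0.116). Of 25 genes of meiotic prophase, Stag3, a meiotic cohesin subunit, rose 1.43-fold from 6.51 ± 0.12 to 7.02 ± 0.21 (SD, n = 4), and Sycp3, of the synaptonemal complex, was 1.19-fold higher, lost in 7 of 8 such fits (limma adjusted p up to 0.082). Among 20 piRNA genes 1 was lower, Piwil1, with overlapping arrays and a call lost in 7 of 8 fits (limma adjusted p up to 0.131).

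Of 14 genes of the 2-cell embryo measured, 3 were higher, 1 lower and 10 not called, with a median of 0.10. Usp17la, a deubiquitinase, read 5.79, 5.49, 5.64 and 5.47 in wild type and 6.51, 6.07, 6.04 and 6.08 in the knockout, a 1.49-fold rise (limma adjusted p = 0.0118). Usp17la has a dimmer second probe set, at 3.43 in wild type and 3.49 in the knockout, which was not called. Its near copies Usp17lb and Usp17lc, which may share probes, were higher by 0.54 and 0.70, each lost in 4 of 8 fits without 1 array (limma adjusted p up to 0.0684 and 0.0787). In the double knockout Usp17la stood at 10.23 ± 0.22 (SD, n = 4), which differed from the Hdac2 knockout (limma adjusted p = 5.74e-13). Zfp750, a zinc finger gene of high wild-type value, was lower by 0.53, with a limma adjusted p of 0.0528 without Hdac2-knockout replicate 1.

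Imprinted genes, read from 1 parental copy in many tissues, were called in 10 of 31 cases, 6 higher and 4 lower, beside 5.59% of all tested probe sets, with a median of -0.01. Phlda2, a maternally expressed growth regulator, read 6.45, 6.52, 6.18 and 6.16 in wild type and 7.16, 7.01, 7.51 and 7.04 in the knockout, a 1.8-fold rise (limma adjusted p = 0.000894). Cdkn1c, a cyclin-dependent kinase inhibitor of the same imprinted domain on chromosome 7, read 7.17, 7.24, 7.04 and 7.36 against 8.13, 7.72, 7.69 and 7.94, a 1.59-fold rise (limma adjusted p = 0.00149). Both were separate from wild type on every array. Zdbf2, a paternally expressed gene, rose 1.61-fold from 6.66 ± 0.06 to 7.35 ± 0.12 (SD, n = 4), while Usp29, a paternally expressed deubiquitinase, fell by 0.65 from 7.90 ± 0.24. Without 1 array the higher count ran from 4 to 6 and the lower from 2 to 4. Of the 8 cyclin-dependent kinase inhibitors Cdkn1c was the one called; Cdkn1a stood at 4.57 and 4.94 and Cdkn1b at 10.09 and 10.19.

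Lipid genes other than Gpat3 gave mixed calls. Of 36 sphingolipid genes 2 were higher and 4 lower, beside 5.59% called over all tested probe sets. Among them Gba2, a glucosylceramidase outside the lysosome, rose 1.45-fold, and Asah1, the lysosomal ceramidase, fell by 0.69 from 6.01 ± 0.17 (SD, n = 4). Without 1 array the sphingolipid counts ran from 1 to 2 higher and from 1 to 4 lower. Of 30 genes of cholesterol synthesis and uptake 3 were higher and 3 lower; centring every array on its own median gave 2 higher and 7 lower. Hsd17b7, an enzyme of cholesterol synthesis, rose 1.21-fold from 9.98 ± 0.03 to 10.25 ± 0.06, and Srebf2, the factor that drives this pathway, 1.44-fold from 6.25 ± 0.28 to 6.78 ± 0.04. The lipoprotein receptor Scarb1 fell by 0.46 from 7.52 ± 0.05 and the cholesterol exporter Abcg1 by 0.44 from 6.70 ± 0.09.

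The lists of stress, death, Kruppel-like, adhesion, acetyltransferase and neuronal genes that follow are read beside the 5.59% called over all tested probe sets. Of 30 p53 pathway genes 1 was higher and 2 lower: Sesn2, a stress-induced regulator of growth signalling, rose 1.30-fold, Trp73, a p53 relative that guards oocyte quality, fell by 0.47, and Polk was lower by 0.22, lost in 4 of 8 fits without 1 array (limma adjusted p up to 0.0641). Dnajb9, a chaperone of the endoplasmic reticulum, rose 1.39-fold from 7.17 ± 0.14 (SD, n = 4), and with Sesn2 it made up the 2 calls among 26 stress response genes. Bcl2l11, which encodes the death factor Bim, was 1.25-fold higher, with a limma adjusted p of 0.0532 without wild-type replicate 1 and 0.0549 without Hdac2-knockout replicate 4. Apaf1, which builds the apoptosome that activates caspases, was lower by 0.45, with a limma adjusted p of 0.058 without wild-type replicate 2, 0.0685 without wild-type replicate 3 and 0.0599 without Hdac2-knockout replicate 1. These were the 2 calls among 26 genes of the BCL2 family and the cell death machinery, whose median change was -0.05. Of 20 Kruppel-like factors 3 were higher and 1 lower: Klf3, a repressor, rose 1.56-fold from 4.55 ± 0.17 while its dimmer probe set was not called, and Klf17, a factor abundant in oocytes, fell by 0.26 from 10.86 ± 0.05. The higher count of Kruppel-like factors ran from 1 to 3 without 1 array, and the lower from 1 to 2. Among 37 integrin, cadherin and gap junction genes 2 were higher and 4 lower. Dsc2, a desmosomal cadherin, fell by 0.90 from 7.06 ± 0.18 and Itgb3, an integrin subunit, by 0.50 from 6.71 ± 0.10. Counts in this list ran from 0 to 2 higher and from 2 to 4 lower without 1 array. Of 25 histone acetyltransferases and bromodomain readers 1 was higher, Baz1a, at 1.28-fold and lost in 4 of 8 fits without 1 array (limma adjusted p up to 0.0849). Of 32 neuronal genes repressed by REST, a factor that recruits HDAC1/2 complexes, limma called 0, and 4 had an unadjusted p under 0.05. Of these 32, 8 were above the median level of tested probe sets. The dimmest bins of wild-type value had calls in 0.636% and 1.89%, so 0 calls in this list says little.

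**Figure D3:**
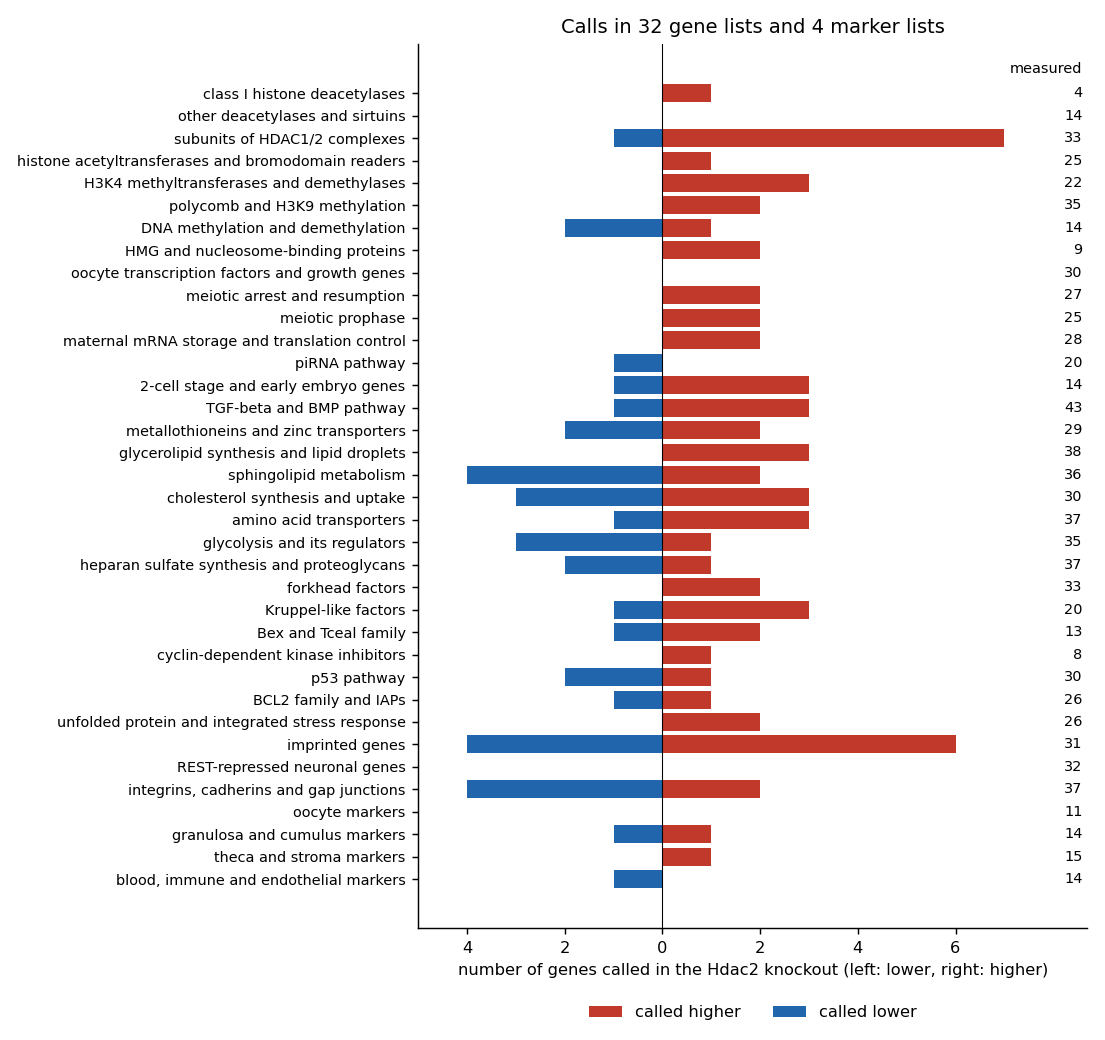
Numbers of genes called higher (red, right) and lower (blue, left) in the Hdac2 knockout against wild type in 32 gene lists and 4 lists of cell markers, with the number measured at the right edge. Subunits of HDAC1/2 complexes had 7 higher and 1 lower of 33, imprinted genes 6 and 4 of 31, and oocyte growth genes 0 and 0 of 30. Over all tested probe sets 5.59% were called.

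Some genes are read by many probe sets, which gives repeated readings of 1 gene. Of the 96 genes with 5 or more, Fat3, Rpl27a and Gapdh are described, chosen after their values were seen. Fat3, a giant cadherin, had 15 probe sets, of which 10 were called higher and 0 lower, with changes from 0.17 to 1.27 and a median of 0.70. The probe set with the largest change read 7.03, 7.24, 7.31 and 7.03 in wild type and 8.72, 8.29, 8.07 and 8.62 in the knockout, without overlap (limma adjusted p = 1.49e-05). These probe sets share the same 8 RNA samples and are not separate replicates. Rpl27a, a ribosomal protein gene, had 8 of 9 probe sets called higher, a larger share by smaller changes (median 0.31), and Gapdh, of glycolysis, 7 of 17 (median 0.20), its brightest not among them. Both have near-identical copies in the genome whose probes may be shared, so these readings are uncertain. Adamts3, a protease that trims procollagen, fell by 0.78 at its brightest probe set. Its 15 other probe sets were not called, though most of them were lower, with changes from -0.50 to 0.10.

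The Hdac2 knockout differed from the Hdac1 knockout in 1226 probe sets (5.78%), 629 higher and 597 lower in the Hdac2 knockout. It differed from the double knockout in 7155 (33.7%), 3589 higher and 3566 lower in the Hdac2 knockout. Comparisons of several knockouts with wild type share the same 4 wild-type arrays, so levels are given side by side and the knockouts are tested against each other directly. For Foxa3 wild type stood at 4.88 ± 0.34 (SD, n = 4) and the Hdac1 knockout at 4.92 ± 0.21, the Hdac2 knockout at 6.98 ± 0.35 and the double knockout at 8.96 ± 0.30. Gdf11 followed the same order at 5.44 ± 0.27, 5.53 ± 0.37, 7.23 ± 0.39 and 10.05 ± 0.15, and Kdm5b at 5.64 ± 0.32, 5.48 ± 0.29, 6.96 ± 0.31 and 9.77 ± 0.12. For each of these 3 the Hdac2 knockout was above the Hdac1 knockout (limma adjusted p = 1.39e-05, 0.000108 and 0.000126) and below the double knockout (6.8e-07, 1.35e-08 and 2.91e-09). Wild type and the Hdac1 knockout did not differ beyond their spread.

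Other genes had already reached, in the Hdac2 knockout, a level that was not distinguished from that of the double knockout. For Hmgn3 the Hdac1 knockout stood at 5.81 ± 0.16 (SD, n = 4), the Hdac2 knockout at 8.14 ± 0.10 and the double knockout at 8.29 ± 0.11, the last difference being 0.15 (limma adjusted p = 0.208). Smoc1 stood at 5.98 ± 0.38, 7.14 ± 0.49 and 7.32 ± 0.38 (limma adjusted p = 0.601 against the double knockout). Among falls, Ednrb stood at 5.82 ± 0.09, 4.81 ± 0.17 and 4.92 ± 0.31 (limma adjusted p = 0.59) and Hivep2 at 6.02 ± 0.30, 5.16 ± 0.33 and 4.86 ± 0.24 (0.203). A missed threshold does not show equal levels. Gpr3 went opposite ways: it rose by 0.38 here and stood at 7.35 ± 0.11 in the double knockout, below wild type at 8.03 ± 0.07, and the 2 knockouts differed (limma adjusted p = 5.47e-09).

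**Figure D4:**
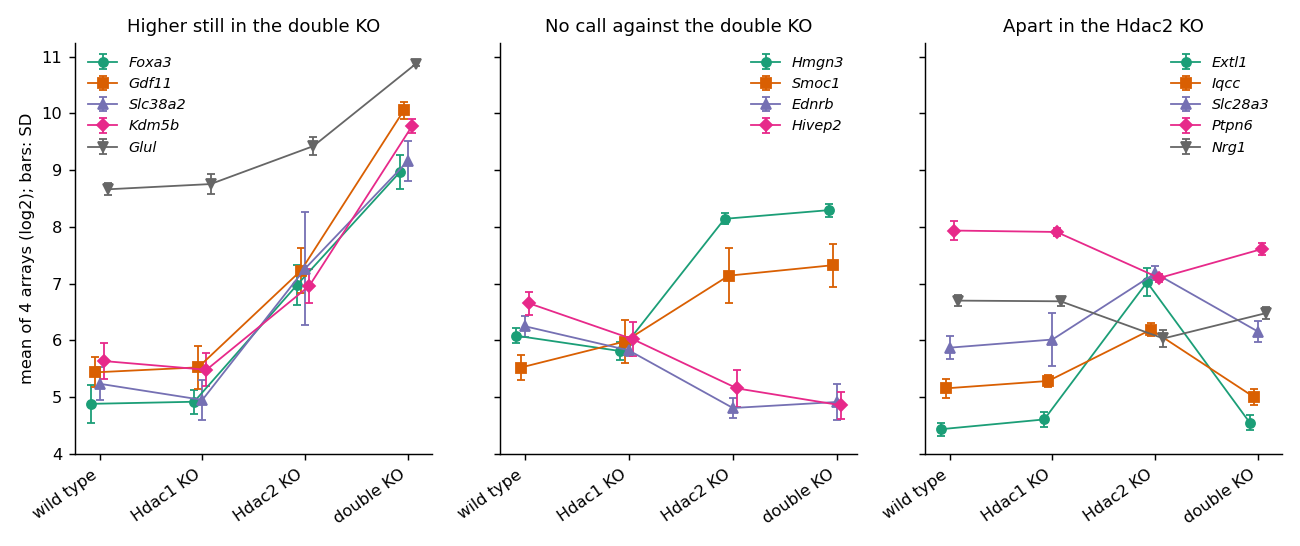
Means of 4 arrays (log2) with SD bars in wild type, the Hdac1 knockout, the Hdac2 knockout and the double knockout for 14 genes in 3 panels. Foxa3, Gdf11, Slc38a2, Kdm5b and Glul are raised in the Hdac2 knockout and higher still in the double knockout, Hmgn3, Smoc1, Ednrb and Hivep2 have no call between these 2 knockouts, and Extl1, Iqcc, Slc28a3, Ptpn6 and Nrg1 differ in the Hdac2 knockout from each other genotype.

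A smaller set differed in the Hdac2 knockout from all 3 other genotypes in the same direction: 110 probe sets (0.518%), 71 higher and 39 lower, of which 2 are those of Hdac1, itself deleted in the other knockouts. The 3 contrasts share the Hdac2-knockout arrays, and the count has no test of its own; it was 66 without Hdac2-knockout replicate 4. Besides Extl1, Slc28a3, a nucleoside transporter, read 5.67, 5.92, 6.15 and 5.75 in wild type and 7.33, 7.05, 7.21 and 7.14 in the Hdac2 knockout, a 2.48-fold rise, with 6.02 ± 0.47 (SD, n = 4) in the Hdac1 knockout and 6.16 ± 0.18 in the double knockout. Mpo, the myeloperoxidase of white blood cells, rose 2.97-fold from 5.03 ± 0.55 to 6.60 ± 0.29 and stood at 5.55 ± 0.22 and 5.22 ± 0.29 in the other knockouts. Marchf11, a ubiquitin ligase, rose 2.41-fold at its brighter probe set, its dim one at 3.54 and 3.67 not being called, and Kbtbd11 rose 2.28-fold from 5.79 ± 0.17.

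Of the 39 falls in this set 2 were larger than 2-fold, those of Pfkfb2, described above, and of Acp1, a small tyrosine phosphatase named after its values were seen, which fell by 1.13 at a probe set that is not its brightest. Ptpn6, the phosphatase SHP-1, read 7.80, 8.15, 7.82 and 7.98 in wild type and 7.12, 7.16, 7.13 and 6.99 in the Hdac2 knockout and fell by 0.84 (limma adjusted p = 9.24e-06), with 7.91 ± 0.06 (SD, n = 4) in the Hdac1 knockout and 7.61 ± 0.10 in the double knockout. Nrg1, a ligand of ErbB receptors, fell by 0.67 from 6.70 ± 0.10, the receptor phosphatase Ptprm by 0.67 from 7.52 ± 0.08, and Nedd4l, a ubiquitin ligase, by 0.82 from 7.81 ± 0.12. Tnfrsf19, a receptor of the tumour necrosis factor family, fell by 0.71 from 5.49 ± 0.23 and stood at 6.02 ± 0.09 in the double knockout, above wild type.

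The 110 probe sets were unevenly placed in the genome. Chromosome 4, which carries Hdac1, held 33 of them, 2.6% of its 1271 tested probe sets, against 1.02% on the X chromosome and 0.668% or less on every other chromosome. Of all calls against wild type, chromosome 4 held 95, or 7.47% of its probe sets, 64 higher and 31 lower. Chromosome 10, which carries Hdac2, held 60 calls (6.1%) and 1 of the 110. Gene order, taken from the RefSeq gene table of GRCm38.p6, was used to measure distance from Hdac1 without its own probe sets. Within 20 genes 8 of 35 probe sets were called (22.9%) and 5 were among the 110 (14.3%), and from 21 to 50 genes away 9 of 56 (16.1%) and 4 (7.14%). At 51 to 100 genes the counts were 10 of 105 (9.52%) and 7 (6.67%), at 101 to 200 genes 20 of 188 (10.6%) and 7 (3.72%), and at 201 to 400 genes 20 of 351 (5.7%) and 1 (0.285%). The 2 sides differed: in the 150 genes after Hdac1 along the chromosome 32 of 152 probe sets were called (21.1%) and 20 were among the 110, while in the 150 genes before it 10 of 142 were called (7.04%) and 1 was. Around Hdac2, 2 of 55 probe sets within 20 genes were called (3.64%), and within 400 genes 0 were among the 110. These are counts of neighbours chosen after their values were seen, with no test.

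Genes beside Hdac1 changed both ways. Iqcc, 6 genes away, read 5.27, 5.33, 5.04 and 4.98 in wild type and 6.32, 6.11, 6.26 and 6.08 in the Hdac2 knockout, a 2.05-fold rise (limma adjusted p = 9.24e-06). Ccdc28b, 7 genes away and linked to cilia, read 10.36, 10.31, 10.21 and 10.37 against 9.90, 9.82, 9.90 and 9.96 and fell by 0.42. Khdrbs1, the RNA-binding protein Sam68, 11 genes away, read 8.72, 8.63, 8.73 and 8.64 against 8.15, 8.12, 8.16 and 8.23 and fell by 0.51 (limma adjusted p = 0.000144), and its second probe set fell by 0.98. In each of the 3 the arrays were tight and separate, and the double knockout stayed near wild type, at 5 ± 0.14 (SD, n = 4), 10.31 ± 0.08 and 8.71 ± 0.07. Zbtb8os, 7 genes to the other side, fell by 0.59 from 9.11 ± 0.07. Of the remaining calls within 20 genes, S100pbp was higher by 0.28 (lost in 7 of 8 fits without 1 array, limma adjusted p up to 0.108) and Serinc2 lower by 0.41, with a limma adjusted p of 0.053 and 0.058 without wild-type replicates 2 and 4. Further along the same side lay Laptm5, a lysosomal membrane protein of blood cells, 27 genes away, which fell by 0.69 from 6.37 ± 0.08, Gpr3 at 58 genes, Slc30a2 at 95 and Extl1 at 96, which rose as described. Sesn2, which rose, and Tcea3, which fell, were named above with their lists and also lay on this side, at 43 and 134 genes. On the other side and further away, Cfap57, a protein of cilia and flagella, rose 2.42-fold (its dimmer probe set, at 4.02 and 4.46, was not called) and the odorant receptor gene Olfr1340 3.2-fold, from 4.82 ± 0.57 to 6.50 ± 0.45.

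**Figure D5:**
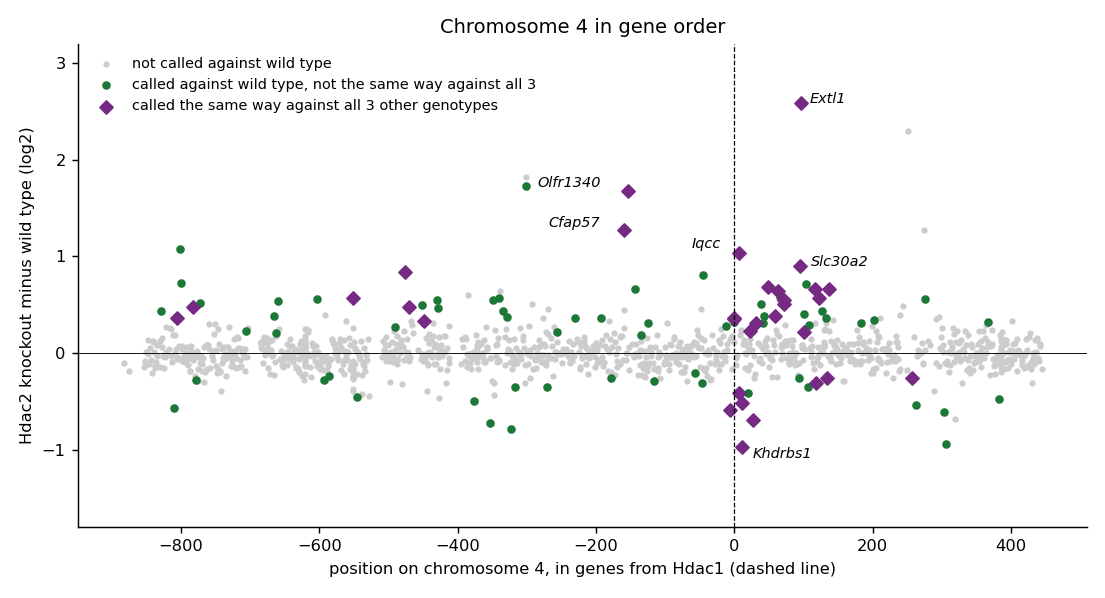
The change of each tested probe set on chromosome 4 (Hdac2 knockout minus wild type, log2) is plotted in gene order around Hdac1 (dashed line at 0), with calls against wild type in green and probe sets called the same way against all 3 other genotypes as purple diamonds. Of the diamonds away from Hdac1 itself, 20 lie in the 150 genes to its right and 1 in the 150 genes to its left.

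Promoters of the genes that responded were compared with those of all genes tested, for which 14739 had a sequence, by counts alone. A GC box was found in 62.0% of the 432 promoters of genes called higher, 50.7% of the 442 of genes called lower and 46.5% of all tested. It was found in 60.4% of promoters of genes above the median wild-type value and 31.1% of those below it. The ratio of observed to expected CpG had a median of 0.685 among genes called higher, 0.643 among those called lower and 0.595 over all tested. It was 0.759 among genes above the median wild-type value and 0.302 among the rest, so both called groups lay below the genes of higher value. For the 34 genes at least 2-fold higher, 50% held a GC box, 41.2% a CCAAT box and 11.8% a TATA box, against 46.5%, 35.7% and 11.4% of all tested. For the 85 that set the Hdac2 knockout apart the shares were 52.9%, 40% and 11.8%. A CCAAT box was found in 37.1% and a TATA box in 6.16% of promoters of genes above the median wild-type value. Among the rest these shares were 34.1% and 17.1%.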

How the data were processed

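RNA from pools of 80 oocytes was amplified and hybridised to arrays, 4 per genotype. The deposited values are on a log2 scale, inferred from their range; per the submitters' processing notes MAS5 was used (version not given in the sources used here). The values were used as deposited, with no further scaling. Of 35556 probe sets, 1881 with several gene symbols and 12457 with none were left out of the main test. The platform annotation gave the symbols, and 21185 of the 21218 probe sets tested matched the RefSeq gene table by gene identifier.

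Differences were tested with limma 3.58.1 in R 4.3.3, with 1 mean per genotype over all 16 arrays, a shared spread and 12 residual degrees of freedom. P-values were two-sided with Benjamini-Hochberg adjustment over the 21218 probe sets, and a probe set was called at an adjusted p under 0.05. The median standard error of a difference was 0.0817. The number of arrays limits the precision. Hdac1 and Hdac2 were also compared by an exact permutation test over 70 arrangements.

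Genes were named by rule, using each gene's brightest probe set and leaving out provisional symbols. Among genes called with separate groups and a higher group mean above the median, the rule took the 15 largest changes per direction, the 8 brightest per direction changed at least 1.4-fold, and the 8 largest changes per direction that also differed the same way from both other knockouts. It further took calls within 20 genes of Hdac1 and up to 4 called members of each gene list. Not every gene so chosen is described. Uncalled list members, cell markers, Fat3, Rpl27a, Gapdh, Acp1 and the neighbours of Hdac1 further than 20 genes away are named outside these rules unless another rule takes them. The members and gene lists were chosen with earlier results of these data known. Alternatives were other scalings, a filter on dim probe sets, only the 8 arrays, a replicate block, other variance settings and leaving out each array in turn.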

Additional observations from a re-analysis of the deposited data

Results flagged for a closer look

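In each named gene, the 4 arrays of a genotype were searched for 1 array far from the others, by Dixon's test. Of 260 groups, 14 had such an array, 5 in wild type and 9 in the Hdac2 knockout; chance gives about 1 in 20.

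Among rises, Slc38a2 in wild-type replicate 2 was low at 4.81, with the next array at 5.34. Gstp1 and Marchf11 were low in Hdac2-knockout replicate 1, at 9.70 and 6.95, and Kdm3a and Sgpl1 were low in replicate 3, at 6.53 and 6.55. Usp17la at 6.51 and Hsd17b7 at 10.35 were high in Hdac2-knockout replicate 1, and Suds3 at 9.59 was high in wild-type replicate 3. The call of Sgpl1 was lost in 5 of 8 fits without 1 array (limma adjusted p up to 0.0646).

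Among falls, Hivep2 at 5.65 was high in Hdac2-knockout replicate 3, Ednrb at 5.06 was high in Hdac2-knockout replicate 2, and Trp73 at 5.32 was low in the same replicate 2. In wild type, Npc1 at 11.10 was high in replicate 3, Adamts3 at 8.34 was high in replicate 4 and Pdk1 at 6.89 was low in replicate 3. The limma adjusted p of Pdk1 was 0.0564 without wild-type replicate 4 and 0.0514 without Hdac2-knockout replicate 3.

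Probe sets outside the main test also held calls against wild type, in a limma fit over every probe set: 42 of 1881 with several gene symbols (2.23%, 23 higher) and 177 of 12457 with none (1.42%, 129 higher).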

How the results depend on the processing

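Leaving out 1 of the 8 arrays gave 683 to 952 calls against wild type in place of 1187, with 364 to 481 higher and 319 to 471 lower, and 356 to 471 at 1.4-fold or more. Against the Hdac1 knockout it gave 678 to 1202 calls (752 without Hdac2-knockout replicate 1 and 678 without replicate 4), against the double knockout 6372 to 7114, and 66 to 102 probe sets apart from all 3 genotypes. Under the other settings the total stayed within 1.5 times of 1187, from 950 to 1329. Centring each array on its median gave 443 higher and 763 lower, of which 1024 calls were shared with the values as deposited. The 2 scalings over the tested probe sets, chosen after seeing the data, gave 1123 and 1200 calls.

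The labels number the replicates alike in each genotype. With the number as a replicate block 950 probe sets were called, 901 of them also without it. Same-numbered arrays deviated together at correlations of -0.04, -0.01, 0.06 and 0.02, and replicate 3 alone correlated best with its own number. These correlations cannot show if same-numbered samples were handled together, which the labels do not say.

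Of 129 named genes called against wild type, 86 were so called in every fit without 1 array and 106 under every other setting that gave a value, and no direction reversed. Counts of list members moved in 121 cases and stayed in 391 without 1 array, and moved in 53 and stayed in 459 under other settings. Pooled oocytes, an array whose probes set each level, and an unseen deletion at the Hdac2 probe set limit these results.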
